A study of Mus musculus with 162 samples.

Results

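The measurements below concern 7 mouse genes that handle ketone bodies: Bdh1, Bdh2, Acat1 and Oxct1, which code for enzymes of ketone body interconversion and use, and Slc16a1, Slc16a6 and Slc16a7, which code for carriers of ketone bodies and other monocarboxylates. They were picked by name, for their known function, and all 7 were found among the 53686 gene symbols of the deposited count table. The libraries were mRNA sequencing libraries of wild-type C57Bl/6J male mice, 8 to 9 weeks old at the start. Food had been withheld for 2, 8, 12, 18 or 22 h before the mice were killed, early in the dark phase, and mice at 0 h fed freely; the study asked how each organ's transcripts moved as a short fast went on. Each of 18 mice, 3 per time point, gave 9 organs: olfactory bulb (OB), telencephalon with diencephalon (BRN), cerebellum (CBL), brainstem (BST), stomach (STM), liver (LIV), interscapular brown fat (iBAT), perigonadal white fat (pgWAT) and posterior subcutaneous white fat (psWAT).

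The libraries in use held 3045845 to 27801717 counted reads each, with a median of 8735554. A depth rule after the study's, 2 SD below the organ's mean but applied to log2 totals, left out 5 more, of 130701 to 4590060 counted reads: BRN 8 h replicate 3, BRN 18 h replicate 1, STM 12 h replicate 3, iBAT 22 h replicate 1 and psWAT 22 h replicate 2, so those groups held 2 libraries and the results rest on the libraries retained. Levels are given as normalised CPM, that is counts scaled to a common library size after TMM factors over all retained libraries. At the floor used here, 3 counts, a level could not be told from none. "Late fast" stands for 18 and 22 h together, and log2FC for the log2 fold change fitted per organ.

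Ketone bodies are made mainly by liver mitochondria from the acetyl-CoA of fatty acid oxidation, and during a fast they fuel the brain, muscle and other organs. Acetoacetate and beta-hydroxybutyrate are interconverted by a mitochondrial dehydrogenase, leave and enter cells through proton-linked carriers, and are turned back to acetyl-CoA by a CoA transferase and a thiolase. Liver is known for having very little of that transferase, so it exports ketone bodies and does not burn them.

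The labelled organs were checked against marker genes, each list summed as normalised CPM. Hepatocyte markers ran from 112400 to 144230 in LIV, led by Alb, and parietal and chief cell markers from 84119 to 309800 in STM, led by Pgc. Brown adipocyte markers ran from 5614 to 15373 in iBAT, led by Ucp1, adipocyte markers from 1157 to 14799 in pgWAT, led by Adipoq, oligodendrocyte markers from 16527 to 19684 in BST, and granule cell markers from 2588 to 3238 in CBL. Neuron markers ran from 3223 to 3732 in OB and from 2107 to 3951 in BRN. In psWAT the adipocyte sum spread from 81.995 to 6655 and the lymphocyte sum from 51.7 to 1676, so these pieces differed widely in make-up.

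Several libraries stood apart in these sums. The skeletal muscle sum was highest in psWAT 2 h replicate 2, at 17134, psWAT 18 h replicate 3, at 12047, psWAT 8 h replicate 2, at 12015, and iBAT 12 h replicate 3, at 10145, and in LIV it reached 918 in 12 h replicate 1. In pgWAT the epididymis and testis sum was 2454 in 2 h replicate 2, 3526 in 18 h replicate 3 and 17523 in 22 h replicate 2, against an organ median of 8.14, while the hepatocyte sum was 3844 in 18 h replicate 2. The library psWAT 12 h replicate 3 had a neuron sum of 2763. In bulk tissue, fewer cells of a type and less RNA per cell cannot be told apart.

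Levels between organs were compared within mice, neighbour by neighbour in each gene's order, and 26 of the 56 neighbour pairs differed. Libraries of different organs were taken as the same mouse where fasting time and replicate number agreed. The sample titles do not state this pairing, so it is an assumption of each comparison within mice here. Bdh1, the mitochondrial dehydrogenase that interconverts acetoacetate and beta-hydroxybutyrate, was highest in LIV, with a mean of 219 normalised CPM (SD 48.2, n = 18). STM followed with a median of 123.2, then OB with 66.4, CBL with 59.1, BST with 52.1 and BRN with 49.2. The fat depots were far lower, with medians of 11.5 in psWAT, 1.28 in pgWAT and 0.382 in iBAT. LIV exceeded STM in 17 of 17 mice, by a mean log2 difference of 0.84, and STM exceeded OB in 17 of 17, by 0.86 (permutation test by sign flips within mice, adjusted p = 0.000168 and 0.00014). The neighbours BST and BRN did not differ beyond their spread (adjusted p = 0.348), nor did pgWAT and iBAT (adjusted p = 0.116). In pgWAT, Bdh1 stood at 64.2 in 22 h replicate 2 and 17.9 in 2 h replicate 2, both with high epididymis and testis sums, and at 7.49 or less in the other 16. Among those was 18 h replicate 3, at 4.90, although its sum was higher than that of 2 h replicate 2.

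In LIV, Bdh1 stood at 307, 316 and 213 normalised CPM at 0 h, at 250, 218 and 216 at 2 h, and at 178.8, 170.3 and 231.9 at 8 h. It then stood at 167.4, 153.6 and 148.6 at 12 h, at 187.2, 268 and 250.2 at 18 h, and at 216, 242 and 202 at 22 h. The 12 h libraries were the lowest of all, below each library of the late fast, and the late fast overlapped with 0 h. The joint test of the 6 time points called Bdh1 in LIV (edgeR quasi-likelihood F test, adjusted p = 0.0185), but it missed the threshold without LIV 0 h replicate 1 (adjusted p = 0.0537) or replicate 2 (adjusted p = 0.0548). The late fast differed from 0 h by a log2FC of -0.28 (SE 0.14; edgeR, adjusted p = 0.184), which did not pass. Lane moved with time in LIV. With lane as a covariate the log2FC was -0.70 and did not pass (edgeR, adjusted p = 0.202), and the joint test gave an adjusted p of 0.0425.

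In OB, Bdh1 stood between 62.96 and 64.3 at 0 h in 3 libraries. At 2 to 12 h it ran from 59.01 through a median of 64.2 to 70.2 in 9 libraries, and in the late fast from 68.2 through 71.5 to 77.005 in 6. All late libraries lay above the 0 h libraries and 5 of 6 above every 2 to 12 h library, though the steps were small. The log2FC against 2 to 12 h was 0.18 (SE 0.05; edgeR, adjusted p = 0.0152). Without OB 18 h replicate 1 it was 0.15 and did not pass (adjusted p = 0.0601). It did not pass with lane as a covariate either (0.27, adjusted p = 0.0739), nor against 12 h alone, in the same lane (0.17, adjusted p = 0.107).

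In iBAT, Bdh1 was close to the floor, with 0 to 30 counts per library and 8 of 17 libraries at 3 counts or fewer. The late libraries held 4, 0 and 0 counts at 18 h and 1 and 1 at 22 h. Earlier libraries with many Bdh1 counts were 0 h replicate 3 with 15, 2 h replicate 3 with 18, 8 h replicates 2 and 3 with 23 and 28, and 12 h replicate 3 with 30. Those same 5 libraries had the 5 highest skeletal muscle sums of the 12 earlier ones, 2841, 2990, 3244, 3315 and 10145. The late libraries had muscle sums of 318, 301 and 1074 at 18 h and of 2395 and 1889 at 22 h, in the order of their counts above. The part of muscle in this result was not tested. The test against 2 to 12 h called Bdh1 lower (log2FC -3.14, SE 1.02; edgeR, adjusted p = 0.0246), a fitted value that depends on the prior count at such low counts. Bdh1 passed the expression filter in iBAT through those 5 earlier libraries, where it was high, and no late library held over 4 counts. Bdh1 is therefore not read as having fallen. It did not pass without iBAT 22 h replicate 2 (-3.44, adjusted p = 0.0679), without 22 h replicate 3 (-2.72, adjusted p = 0.0967) or against 12 h alone (-3.42, adjusted p = 0.234), and was -2.62 without 12 h replicate 3, the library richest in muscle markers (adjusted p = 0.0447). Against the same mouse's other organs the late level was lower by -2.58 on the log2 scale, a size that depends on the 0.1 CPM added to levels (exact permutation test, 5 against 12 mice, adjusted p = 0.0489), in 5 of 5 late mice, and missed the threshold when the 5 libraries of low depth were put back (exact permutation test, adjusted p = 0.0515). That difference was made of -2.15 in iBAT itself and 0.43 in the mean of the other organs.

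Bdh2, a cytosolic dehydrogenase of the same substrate named for its likeness to Bdh1, was highest in LIV, with a mean of 29.7 normalised CPM (SD 5.73, n = 18). Its median was 5.01 in pgWAT and 3.48 or less in each of the other organs. LIV exceeded pgWAT in 18 of 18 mice by a mean log2 difference of 2.61 (permutation test, adjusted p = 0.00014). In iBAT it stayed at 3 counts or fewer in 13 of 17 libraries and did not pass the expression filter, so it was tested in 8 organs. Its LIV levels were 32.1, 30.5 and 24.1 at 0 h, 31.1, 37.7 and 43.6 at 18 h, and 24.6, 22.8 and 25.8 at 22 h. The 18 h and 22 h libraries did not overlap with each other. The joint test in LIV gave an adjusted p of 0.0939 by edgeR, and of 0.0464 without LIV 12 h replicate 1, the library with the highest muscle sum of that organ, left out after seeing the data. Without LIV 18 h replicate 1, with a muscle sum of 21.97, it gave 0.0451 (edgeR).

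Acat1, the mitochondrial thiolase that splits acetoacetyl-CoA into acetyl-CoA and also runs in the reverse direction, was highest in iBAT, with a mean of 1444 normalised CPM (SD 326, n = 17). LIV followed with a median of 428, pgWAT with 343 and STM with 208. The other 5 organs had medians between 84.7 in psWAT and 114.8 in BST. iBAT exceeded LIV in 17 of 17 mice by a mean log2 difference of 1.76 (permutation test, adjusted p = 0.00014). The 4 neighbour steps from BST through BRN, psWAT and OB to CBL did not differ beyond their spread.

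In STM, Acat1 stood at 264, 195 and 433 normalised CPM at 0 h. From 2 to 12 h it ran from 174 through a median of 271 to 339 in 8 libraries. At 18 h it stood at 137.3, 154.1 and 119.7 and at 22 h at 140.9, 205 and 117.3. Of the 6 late libraries, 5 lay below every earlier one, and 22 h replicate 2 overlapped with them. Acat1 fell in the late fast against 0 h, with a log2FC of -1.10 (SE 0.23; edgeR quasi-likelihood test, adjusted p = 0.00805), and against 2 to 12 h, with a log2FC of -0.81 (SE 0.19; adjusted p = 0.0122). Without STM 0 h replicate 3, the highest library, the first was -0.68 and no longer passed (adjusted p = 0.0832). The joint test called Acat1 in STM as well (edgeR, adjusted p = 0.0353), but not without STM 0 h replicate 1 (adjusted p = 0.0528), 18 h replicate 1 (adjusted p = 0.107) or 18 h replicate 3 (adjusted p = 0.119). With replicate number as a block the joint test missed the threshold too (edgeR, adjusted p = 0.0679). Measured against the same mouse's other organs, the late level was lower by a log2 difference of -0.94 (6 late against 11 earlier mice, exact permutation test, adjusted p = 0.0153 over 63 pairs), and all 6 late mice lay below the earlier mean. This comparison does not separate time from the sequencing lane of the STM libraries, described below.

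Oxct1, the CoA transferase that begins ketone body use, was highest in STM, with a median of 612 normalised CPM. Its medians were 466 in iBAT, 401 in pgWAT, 373 in OB, 357 in CBL, 341 in BRN, 334 in BST and 122.6 in psWAT. In LIV the median was 5.13, and psWAT exceeded LIV in 17 of 17 mice by a mean log2 difference of 4.56 (permutation test, adjusted p = 0.00014). STM and iBAT, first and next in the order, did not differ beyond their spread (adjusted p = 0.146). The highest Oxct1 levels in LIV were 20.3 in 12 h replicate 1 and 11.5 in 12 h replicate 2, the libraries with the highest muscle marker sums of that organ, 918 and 334. Without those 2 libraries, LIV Oxct1 stood between 2.95 and 7.95.

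In STM, Oxct1 stood at 643, 510 and 768 normalised CPM at 0 h. Between 2 and 12 h it ran from 460.1 through a median of 697 to 823 in 8 libraries. The late levels were 323, 354 and 362 at 18 h and 409, 612 and 357 at 22 h. As for Acat1, 5 of the 6 late libraries lay below every earlier library and 22 h replicate 2 did not. Oxct1 fell against 0 h with a log2FC of -0.74 (SE 0.21; edgeR, adjusted p = 0.0254) and against 2 to 12 h with a log2FC of -0.74 (SE 0.17; edgeR, adjusted p = 0.00987). The first did not pass without STM 0 h replicate 1 (-0.73, adjusted p = 0.0733), without 0 h replicate 3 (-0.55, adjusted p = 0.153) or without 18 h replicate 1 (-0.71, adjusted p = 0.0566). With 22 h alone as the late fast neither Oxct1 (-0.53, adjusted p = 0.219) nor Acat1 (adjusted p = 0.0796) passed against 0 h. The joint test gave an adjusted p of 0.0424 by edgeR, and of 0.0506 to 0.152, which missed the threshold, when any of 5 STM libraries was left out: 0 h replicate 1, 18 h replicates 1, 2 and 3, or 22 h replicate 1. With replicate number as a block it missed the threshold too (edgeR, adjusted p = 0.0783). Against the same mouse's other organs the late level in STM was lower by a log2 difference of -0.67 (exact permutation test, 6 against 11 mice, adjusted p = 0.0267), in 6 of 6 late mice. With the 5 libraries of low depth put back this was -0.60 and did not pass (exact permutation test, adjusted p = 0.0607).

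Sequencing lane moved with time in STM: the 0 h and 2 h libraries were in lane 5, the 12, 18 and 22 h libraries in lane 6, and the 8 h libraries in both. With lane as a covariate, the late fast against 0 h gave -0.92 for Acat1 (edgeR, adjusted p = 0.736) and -0.62 for Oxct1 (edgeR, adjusted p = 0.777). Against 2 to 12 h it gave -0.72 for Acat1 (adjusted p = 0.444), -0.67 for Oxct1 (adjusted p = 0.428) and -0.80 for Slc16a7 (adjusted p = 0.478), and the joint test gave an adjusted p of 0.922 for both Acat1 and Oxct1, so no edgeR call in STM held with that term. Within lane 6, the late fast against 12 h called 0 of 7 members by edgeR, beside 0% of the 16281 genes tested. At an unadjusted p under 0.05 there were 2 members, beside 1447 of those genes. The log2FC there was -0.53 for Acat1 (adjusted p = 0.589), -0.51 for Oxct1 (adjusted p = 0.557) and -0.80 for Slc16a7 (adjusted p = 0.527). Lane and time cannot be told apart for the late fast against 0 h in STM.

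Markers moved in STM too. The skeletal muscle sum, led by Acta1, stood at 1935, 1560.1 and 291 at 0 h, at 2283, 4106 and 2213 at 18 h, and at 2609, 2954 and 4277 at 22 h, so all late libraries exceeded all 0 h libraries. Acta1 itself had a log2FC of 1.14 against 0 h (SE 1.38; edgeR, adjusted p = 0.597). The parietal and chief cell sum stood at 214900, 146190 and 194990 at 0 h and between 84119 and 194470 in the late fast, overlapping. Of its 4 markers Gif, coding for intrinsic factor, passed as lower (log2FC -1.42, SE 0.45; edgeR, adjusted p = 0.0435), Atp4a had a log2FC of -0.94 (adjusted p = 0.0811), and none was at 0. Against 2 to 12 h, Gif (-1.38, SE 0.37; edgeR, adjusted p = 0.0232), Atp4b (-1.01, SE 0.29; adjusted p = 0.0278) and Atp4a (-0.98, SE 0.29; adjusted p = 0.0324) all passed as lower. Neuron markers rose: their sum went from between 17.0 and 33.6 at 0 h to between 46.96 and 79.4 in the late fast, with Syt1 at 1.72 (SE 0.34; edgeR, adjusted p = 0.00607) and Snap25 at 1.29 (SE 0.33; adjusted p = 0.0171) against 0 h. In that comparison the fat markers Lep (-6.08, adjusted p = 0.0052) and Cox7a1 (-1.02, adjusted p = 0.0476) fell, with Plin1 (-3.05, adjusted p = 0.0591) and Adipoq (-2.98, adjusted p = 0.0517) short of the threshold. The hepatocyte marker Ttr (-1.29, adjusted p = 0.0181) and the astrocyte marker Slc1a3 (-0.93, adjusted p = 0.0379) fell too. STM 0 h replicate 3, the library with the most Acat1, had the highest brown adipocyte sum of the organ, 209.7. The part of all these cells in the STM results was not tested.

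In iBAT, Acat1 stood at 1541, 881 and 1409 normalised CPM at 0 h. At 2 to 12 h it ran from 1100.5 through a median of 1266 to 1977.5 in 9 libraries, and the late levels were 1503, 1835 and 1751 at 18 h and 1960.5 and 1818.5 at 22 h. All 5 late libraries lay above the median of 2 to 12 h, yet 12 h replicate 1 exceeded them all. Acat1 rose against 2 to 12 h with a log2FC of 0.45 (SE 0.15; edgeR, adjusted p = 0.0299). This did not pass without iBAT 18 h replicate 2 (0.42, adjusted p = 0.0689), 18 h replicate 3 (0.44, adjusted p = 0.0609) or 22 h replicate 2 (0.42, adjusted p = 0.109), nor against 12 h alone (0.31, adjusted p = 0.422). In the same comparison the brown adipocyte markers Cox7a1 (log2FC 1.21, SE 0.20; edgeR, adjusted p = 0.00137) and Cidea (0.58, SE 0.14; adjusted p = 0.00454) and the adipocyte markers Adipoq (0.80, adjusted p = 0.00126) and Cidec (0.37, adjusted p = 0.0128) rose, and the endothelial markers Cdh5 (-0.81, adjusted p = 0.0126) and Flt1 (-0.59, adjusted p = 0.0424) fell. The other brown adipocyte markers Ucp1 (0.39, edgeR, adjusted p = 0.171) and Dio2 (0.51, adjusted p = 0.405) did not pass. The other adipocyte markers Lep (-0.78, adjusted p = 0.256) and Plin1 (-0.15, adjusted p = 0.302) went the other way and did not pass. Of the endothelial markers, Pecam1 (-0.38, adjusted p = 0.0586) and Cldn5 (0.06, adjusted p = 0.828) did not pass. The part of these cells in the Acat1 result was not tested.

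In OB, Acat1 stood at 98.0, 95.9 and 96.6 normalised CPM at 0 h. It ran from 89.7 through 96.8 to 100.5 in the 9 libraries of 2 to 12 h, and stood at 120.95, 115.3 and 122.7 at 18 h and at 102.5, 102.2 and 98.4 at 22 h. The 18 h libraries lay above all others, and those at 22 h came back near the earlier range. Acat1 rose against 2 to 12 h with a log2FC of 0.20 (SE 0.04; edgeR, adjusted p = 0.00347) and passed the joint test (edgeR, adjusted p = 0.00742). OB lanes followed the same scheme as STM lanes, and within the later lane the late fast against 12 h called 2 of 7 members, beside 10.1% of all genes tested. Acat1 was one of them, with a log2FC of 0.23 (SE 0.06; edgeR, adjusted p = 0.0193). Cell type markers moved in OB too. Against 2 to 12 h the oligodendrocyte markers Mog (0.38, SE 0.09; edgeR, adjusted p = 0.00682) and Mag (0.28, adjusted p = 0.0271), the astrocyte marker Gfap (0.18, adjusted p = 0.0102) and the neuron marker Stmn2 (0.15, adjusted p = 0.0251) rose, while the astrocyte marker Aqp4 (-0.25, adjusted p = 0.0123) and the endothelial marker Flt1 (-0.39, adjusted p = 0.0152) fell. The other neuron markers did not pass, with Syt1 at -0.11 (edgeR, adjusted p = 0.0617), Snap25 at 0.03 (adjusted p = 0.624) and Rbfox3 at 0.05 (adjusted p = 0.494). The neuron sum had a median of 3476.2 at 2 to 12 h and of 3431.7 in the late fast. The part of these cells in the results of the members in OB was not tested.

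BRN Acat1 stood at 87.4, 92.0 and 82.4 at 0 h, at 184 and 103.9 at 18 h, and at 123.5, 163 and 100.9 at 22 h. The late libraries all exceeded the 0 h libraries but overlapped with 2 to 12 h, which ran from 81.5 to 151.3. The log2FC against 0 h was 0.64 (SE 0.23; edgeR, adjusted p = 0.0686) and did not pass, though it did without BRN 18 h replicate 3 (0.82, adjusted p = 0.0105), without 22 h replicate 3 (0.72, adjusted p = 0.0280) and without a filter on low counts (0.65, adjusted p = 0.0127). The oligodendrocyte sum of BRN ran from 4750 to 6263 at 0 h and stood, for the late libraries in the same order, at 15077, 5628, 12222, 19098 and 6941. The 3 highest of these were the 3 with the highest Acat1 levels, and the part of those cells was not tested. In CBL, Oxct1 ran from 333 to 358 at 0 h, from 339 to 379.8 at 2 to 12 h and from 346 to 419 in the late fast, with overlapping groups. Its own change was 0.08 on the log2 scale while the mean over the other organs moved by -0.15, so the within-mouse difference of 0.23 passed (exact permutation test, 6 against 12 mice, adjusted p = 0.0181) although edgeR did not call Oxct1 in CBL.

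Slc16a1, the proton-linked carrier MCT1 of lactate, pyruvate and ketone bodies, was highest in iBAT, with a mean of 268 normalised CPM (SD 67.3, n = 17). STM had a median of 75.7, BST of 67.2 and pgWAT of 55.3, and the other 5 organs had medians between 29.6 and 39.5. iBAT exceeded STM in 16 of 16 mice by a mean log2 difference of 1.77 (permutation test, adjusted p = 0.000168). The steps from CBL through LIV and psWAT to OB did not differ beyond their spread.

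In iBAT, Slc16a1 stood at 456, 276 and 384 normalised CPM at 0 h. At 2 to 12 h it ran from 212 through a median of 252 to 298 in 9 libraries, and it stood at 284, 291 and 238 at 18 h and at 182 and 197 at 22 h. The 22 h libraries were the lowest of the organ, the 0 h libraries included the highest, and the 18 h libraries overlapped with the lowest at 0 h. Slc16a1 fell in the late fast against 0 h with a log2FC of -0.72 (SE 0.17; edgeR quasi-likelihood test, adjusted p = 0.00913) and passed the joint test (edgeR, adjusted p = 0.0229). It did not pass against 2 to 12 h (log2FC -0.14, SE 0.13; edgeR, adjusted p = 0.424). With 18 h alone as the late fast the log2FC against 0 h was -0.49 (edgeR, adjusted p = 0.419). The joint call was lost without iBAT 0 h replicate 1 (adjusted p = 0.108), 0 h replicate 3 (adjusted p = 0.0661) or 22 h replicate 2 (adjusted p = 0.0890).

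The 22 h libraries of iBAT were in lanes 1 and 3, which held no other iBAT library in use, so lane and 22 h cannot be told apart and a fit with lane could not be had. Within lane 8, Slc16a1 stood at 456 and 276 at 0 h and at 284 at 18 h, and within lane 5 at 384 and 238. No test was run within those lanes. Endothelial markers moved in the same comparison. Their sum, led by Cdh5, stood at 696, 997 and 425 at 0 h, at 506, 500.0 and 511 at 18 h, and at 255 and 288 at 22 h, and 3 of 4 fell: Cdh5 (log2FC -1.31, SE 0.28; edgeR, adjusted p = 0.00627), Flt1 and Pecam1. None of the 4 endothelial markers was at 0. Against 0 h, Adipoq (0.81, edgeR, adjusted p = 0.00441) and Cidec (0.60, adjusted p = 0.00923) of the adipocyte markers rose. So did Cidea of the brown adipocyte markers (0.66, adjusted p = 0.0203) and Slc1a3 of the astrocyte markers (0.77, adjusted p = 0.0286). Of the same lists Plin1 (0.04), Lep (-1.08), Cox7a1 (0.70), Dio2 (0.26), Ucp1 (-0.27), Aldh1l1 (0.11) and Aqp4 (-1.30) did not pass. The part of all these cells in the Slc16a1 result was not tested.

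Fold changes in iBAT also followed gene length: across 14265 genes, which are not independent replicates, Spearman's rho between log2FC against 0 h and exon length was -0.474. The median log2FC was 0.43 in the bin of shortest genes and -0.56 in that of the longest, each of 5 equal bins. With an offset for exon length, an alternative chosen after seeing the data, Slc16a1 gave a log2FC of -0.62 (edgeR, adjusted p = 0.0235) and lost its call in the joint test (edgeR, adjusted p = 0.0515). With the same offset Slc16a7, the member with the longest exons, gave 1.22 (edgeR, adjusted p = 0.0031), against 0.61 without it (SE 0.26; adjusted p = 0.0972). The same rho was -0.409 in BRN, -0.379 in OB, -0.347 in pgWAT and 0.175 in STM.

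Slc16a7, the carrier MCT2 with a high affinity for pyruvate and ketone bodies, was highest in STM, with a median of 149.6 normalised CPM. Medians were 83.6 in pgWAT, 78.2 in LIV and 39.01 in iBAT, and between 14.6 and 19.6 in the other 5 organs. STM exceeded LIV in 13 of 17 mice by a mean log2 difference of 0.58 (permutation test, adjusted p = 0.0196). The 4 brain regions and psWAT came last in the order, CBL below iBAT in 16 of 17 mice (permutation test, adjusted p = 0.000254), and the 4 steps among them did not pass.

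In STM, Slc16a7 stood at 129, 149.6 and 122.3 at 0 h. In the 8 libraries of 2 to 12 h it ran from 94.1 through a median of 182 to 260.3, and it stood at 60.8, 76.9 and 63.8 at 18 h and at 96.7, 160.8 and 41.1 at 22 h. Of the late libraries, 4 lay below every 2 to 12 h library, and 22 h replicate 2 lay above the 0 h libraries. Slc16a7 fell against 2 to 12 h with a log2FC of -1.10 (SE 0.25; edgeR, adjusted p = 0.0106). Against 0 h the log2FC was -0.75 (SE 0.30; edgeR, adjusted p = 0.0991), which passed without STM 22 h replicate 2 (-1.02, adjusted p = 0.0189) and with the offset for exon length (-0.96, adjusted p = 0.0347).

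In OB, Slc16a7 stood at 19.4, 23.2 and 15.7 at 0 h. It ran from 13.1 through a median of 19.97 to 21.8 in the 9 libraries of 2 to 12 h, and stood at 10.4, 15.0 and 13.4 at 18 h and at 12.2, 16.5 and 16.5 at 22 h. The late libraries were all below the median of 2 to 12 h, and the ranges overlapped. Slc16a7 fell against 2 to 12 h with a log2FC of -0.44 (SE 0.10; edgeR, adjusted p = 0.0068) and passed the joint test (edgeR, adjusted p = 0.0313), which was lost without OB 18 h replicate 1 (adjusted p = 0.112) or replicate 3 (adjusted p = 0.0678). Within the later lane the log2FC against 12 h was -0.47 (SE 0.13; edgeR, adjusted p = 0.0349). With lane as a covariate neither passed (log2FC against 2 to 12 h -0.39, adjusted p = 0.163; joint test, adjusted p = 0.102). With the offset for exon length the log2FC against 2 to 12 h was -0.27 (edgeR, adjusted p = 0.0375) and the joint test did not pass (adjusted p = 0.146). Against 0 h it was, without these terms, -0.46 and missed the threshold (edgeR, adjusted p = 0.0687). It passed by DESeq2 (-0.48, adjusted p = 0.0297), without a filter on low counts (-0.46, edgeR, adjusted p = 0.00154) and with replicate number as a block (-0.48, adjusted p = 0.0311). It also passed without OB 0 h replicate 3 (-0.58, adjusted p = 0.0231) or 18 h replicate 2 (-0.53, adjusted p = 0.0348). With lane as a covariate it was -0.38 and did not pass (edgeR, adjusted p = 0.646).

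Slc16a6, a carrier known in zebrafish for the export of ketone bodies from liver cells, had a median of 27.9 normalised CPM in psWAT, 17.5 in BST, 16.4 in LIV, 13.5 in OB, 13.1 in STM and 11.4 in CBL. BRN had 6.65, pgWAT 5.72 and iBAT 0.812. In the order of mean log2 levels, in which pgWAT comes before BRN, the steps from CBL to pgWAT, in 18 of 18 mice (permutation test, adjusted p = 0.00014), and from BRN to iBAT, in 14 of 15 (adjusted p = 0.000336), exceeded the spread and the other 6 did not. The exons of Slc16a6 share 21.5% of their length with Amz2 on the other strand, those of Bdh1 13.7% with Gm15743, those of Oxct1 12.6% with BC037032 and those of Slc16a7 1.51% with Gm47862, and the strand setting of the counting was not given in the sources used here.

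Within OB, Slc16a6 stood at 13.2, 14.5 and 13.8 at 0 h, ran from 10.9 through a median of 16.2 to 18.1 at 2 to 12 h, and stood at 9.18, 11.6 and 11.6 at 18 h and at 11.7, 13.0 and 12.5 at 22 h. All 6 late libraries lay below the 0 h libraries and below the median of 2 to 12 h. Slc16a6 fell against 2 to 12 h with a log2FC of -0.42 (SE 0.10; edgeR, adjusted p = 0.00606), while against 12 h, in the same lane, it did not pass (-0.37, SE 0.13; edgeR, adjusted p = 0.0646), nor did it with lane as a covariate (-0.53, adjusted p = 0.0668).

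For LIV, Slc16a6 levels were 15.9, 18.1 and 33.5 at 0 h, 16.8, 11.4 and 7.73 at 18 h, and 11.1, 7.77 and 8.03 at 22 h. At 2 to 12 h it ran from 7.21 through 19.96 to 28.7 in 9 libraries. Of the 6 late libraries, 5 lay below all 0 h libraries. The log2FC against 0 h was -1.11 (SE 0.35; edgeR, adjusted p = 0.0567) and did not pass, whereas DESeq2 called it (-1.12, adjusted p = 0.0110). Without LIV 18 h replicate 1 edgeR called it as well (-1.28, adjusted p = 0.0390). Lanes in LIV followed the scheme of STM, and with lane as a covariate the direction turned, to 0.57 against 0 h (edgeR, adjusted p = 0.675) and, against 2 to 12 h, from -0.88 (SE 0.28; edgeR, adjusted p = 0.0953) to 0.12 (adjusted p = 0.939). That term joins the lanes through the 8 h libraries, with 1 of them, at 7.21, in the later lane. Within the later lane, late fast against 12 h, it was -1.10 (SE 0.35; edgeR, adjusted p = 0.158).

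In BRN, Slc16a6 levels were 13.4, 14.6 and 9.75 at 0 h, 0.358 and 5.75 at 18 h, and 3.79, 2.90 and 9.80 at 22 h. The library 18 h replicate 2, at 1 count, was the lowest, and 22 h replicate 3 overlapped with 0 h. The log2FC against 0 h was -1.54 (SE 0.53; edgeR, adjusted p = 0.0635), and it passed by DESeq2 (-1.57, adjusted p = 0.0255), without BRN 22 h replicate 3 (-1.89, adjusted p = 0.0186) and without 18 h replicate 3, which leaves 1 library at 18 h (-3.14, adjusted p = 0.00317). The 3 late libraries with the lowest Slc16a6 levels had the 3 highest oligodendrocyte sums of the late fast. BST levels were 16.9, 16.8 and 17.6 at 0 h, 21.6, 21.6 and 21.2 at 18 h, and 16.3, 20.3 and 15.4 at 22 h. The 18 h libraries of BST lay above all others, and 22 h overlapped with 0 h. In BST edgeR did not call it against 0 h (log2FC 0.17, SE 0.10; adjusted p = 0.573), against 2 to 12 h (0.16, adjusted p = 0.377) or in the joint test (adjusted p = 0.370). Against the same mouse's other organs, the late level in BST was higher by a log2 difference of 0.68 (exact permutation test, 6 against 12 mice, adjusted p = 0.0181), made of 0.15 in BST itself and -0.53 in the mean of the other organs.

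**Figure D1:**
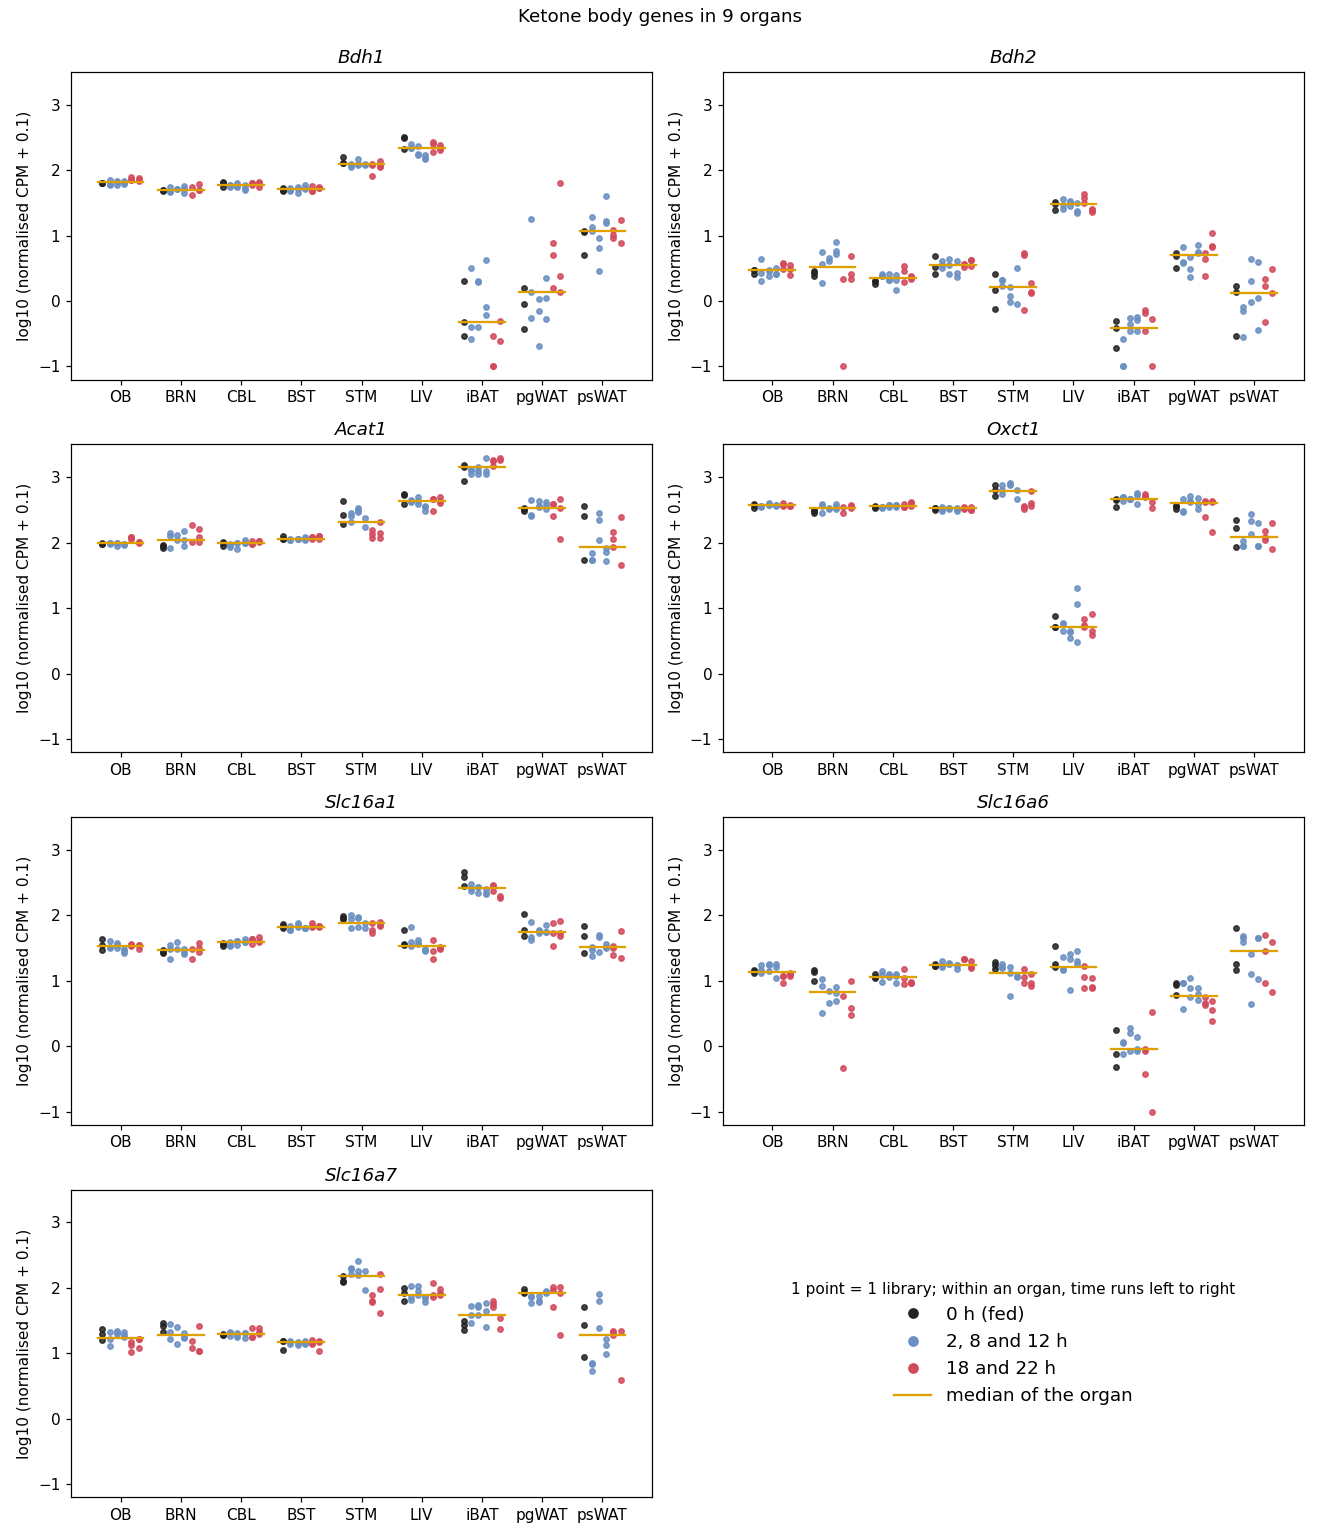
Levels of the 7 genes in 9 organs, as log10 of normalised CPM plus 0.1; each point is 1 retained library, black at 0 h, blue at 2, 8 and 12 h, red at 18 and 22 h, and the yellow line is the organ's median. Oxct1 in LIV, with a median of 5.13, lies apart from the other organs, and Acat1 and Slc16a1 peak in iBAT.

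**Figure D2:**
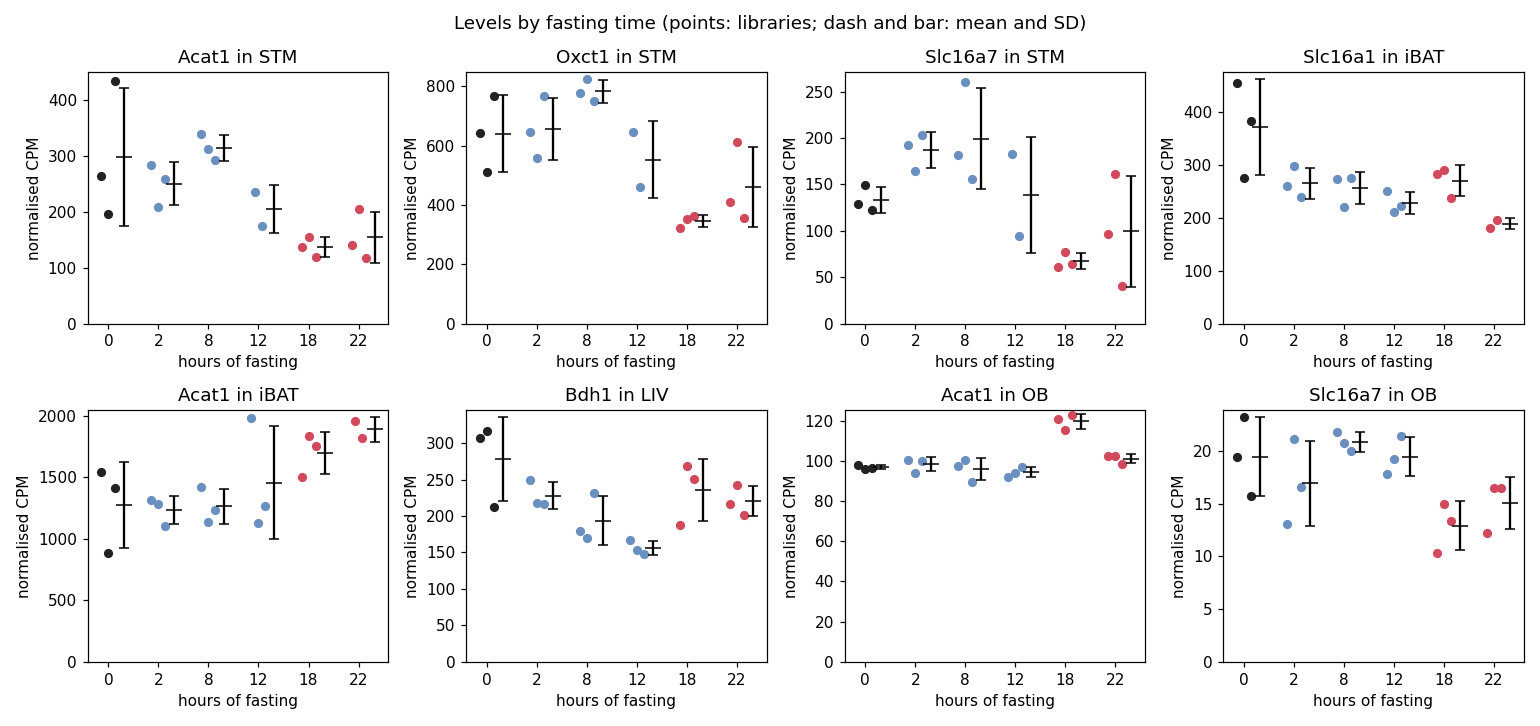
Levels of called members by hours of fasting, as normalised CPM; each point is a library, and the dash and bar are the mean and SD of the 2 or 3 libraries of a time. In STM, 18 h libraries lay at 119.7 to 154.1 for Acat1 and 323 to 362 for Oxct1, below every library at 0 to 12 h.

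Across organs, the late fast against 0 h called 3 of the 62 tested pairs of member and organ (edgeR quasi-likelihood test, adjusted p under 0.05 over all genes of the organ), all lower: Acat1 and Oxct1 in STM and Slc16a1 in iBAT. Without 7 libraries with markers of another tissue, picked after seeing the data, it called 4. The share over all genes in that setting is not given, so this count is not read as a result about the members. In STM this was 2 of 7 members against 15.3% of all genes tested, and in iBAT 1 of 6 against 20.9%. In the counts that follow, brackets hold the number over all genes tested in the organ. OB had 0 of 7 by edgeR against 1.95%, with 3 at an unadjusted p under 0.05 (3813 of 16742) and 2 by DESeq2 (810). BRN had 0 of 7 by edgeR against 11.2%, with 3 at an unadjusted p under 0.05 (4862 of 16749) and 1 by DESeq2 (3015). LIV had 0 of 7 by edgeR against 10.6%, with 3 at an unadjusted p under 0.05 (3740 of 14023) and 1 by DESeq2 (1766). CBL had 0 of 7 by edgeR against 0.344%, with 1 at an unadjusted p under 0.05 (2402 of 15976) and 0 by DESeq2 (349). BST had 0 of 7 against 0.0596%, with 0 (1656 of 16784) and 0 (22). pgWAT had 0 of 7 by edgeR against 0.00609%, with 2 at an unadjusted p under 0.05 (3567 of 16412) and 1 by DESeq2 (1136). psWAT had 0 of 7 against 0%, with 0 (867 of 16721) and 0 (12).

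The late fast against 2 to 12 h shares its late libraries with that comparison and called 9 of 62 pairs, 3 higher and 6 lower. OB had 4 of 7 against 24.2% of all genes tested, STM 3 of 7 against 14.2%, and iBAT 2 of 6 against 34.6%. One of the iBAT calls, and of the 6 lower, was Bdh1, which passed the filter through earlier libraries alone. That call is counted here but is not read as a fall. LIV had 0 of 7 by edgeR against 2.67%, with 2 at an unadjusted p under 0.05 (2762 of 14023) and 1 by DESeq2 (740). BRN had 0 of 7 by edgeR against 0%, with 1 at an unadjusted p under 0.05 (1180 of 16749) and 0 by DESeq2 (7). CBL had 0 of 7 by edgeR against 1.53%, with 0 at an unadjusted p under 0.05 (2832 of 15976) and 0 by DESeq2 (551). BST had 0 of 7 by edgeR against 0.256%, with 2 at an unadjusted p under 0.05 and 0 by DESeq2. Both white depots stood against 0%. pgWAT had 0 of 7 by edgeR, with 2 at an unadjusted p under 0.05 (2555 of 16412) and 1 by DESeq2 (416). psWAT had 0, with 0 (753 of 16721) and 0 (3).

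Any difference among the 6 times was called in 6 of 62 pairs: Acat1 and Slc16a7 in OB (2 of 7, against 15.4% of all genes), Acat1 and Oxct1 in STM (2 of 7, against 6.55%), Bdh1 in LIV (1 of 7, against 16%) and Slc16a1 in iBAT (1 of 6, against 29%). In BRN edgeR called 0 of 7 against 0.00597%, with 0 at an unadjusted p under 0.05 (2779 of 16749) and 0 by DESeq2 (1577). In CBL it called 0 of 7 against 2.99%, with 0 (3801 of 15976) and 0 (1771). In BST it called 0 of 7 against 0.107%, with 1 at an unadjusted p under 0.05 (1870 of 16784) and 0 by DESeq2 (212). In pgWAT it called 0 of 7 against 0%, with 2 at an unadjusted p under 0.05 (1693 of 16412) and 1 by DESeq2 (556). In psWAT it called 0 of 7 against 0%, with 3 at an unadjusted p under 0.05 (3195 of 16721) and 2 by DESeq2 (2051). Within the later lane of LIV, the late fast against 12 h called 0 of 7 members by edgeR, against 0.00713% of all genes. At an unadjusted p under 0.05 there were 4 members, beside 2402 of the 14023 genes tested. There Bdh1 had a log2FC of 0.54 (SE 0.14; edgeR, adjusted p = 0.110).

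In psWAT, whose make-up varied, member levels followed the marker sums. Over 17 libraries, log2 levels of Slc16a7 and the adipocyte sum had a Pearson r of 0.962 and a Spearman rho of 0.968, and r was 0.950 without the 2 libraries farthest out and 0.962 in the 10 libraries of lane 5 (permutation p = 1e-05, the smallest possible, adjusted p = 3.5e-05 and 2.33e-05 over 14 relations). The next 3 relations had the same unadjusted p. For Acat1 and the adipocyte sum, r was 0.922 and rho 0.934, with 0.910 without the 2 farthest and 0.882 in lane 5 (permutation test, adjusted p = 3.5e-05 and 2.33e-05). Slc16a6 went with the lymphocyte sum instead, with r 0.914 and rho 0.946, 0.980 without the 2 farthest and 0.906 in lane 5 (permutation test, adjusted p = 3.5e-05 and 2.33e-05). Oxct1 was lower where the lymphocyte sum was higher, with r -0.863 and rho -0.904, -0.892 without the 2 farthest and -0.852 in lane 5 (permutation test, adjusted p = 3.5e-05 and 2.33e-05). Bdh1 and the lymphocyte sum gave r 0.301 over all libraries, 0.736 without the 2 farthest and -0.734 in lane 5, which held 12 h replicate 3, the library with the high neuron sum (permutation test, p = 0.235 and adjusted p = 0.235 for r, p = 0.0238 and adjusted p = 0.0238 for a rho of 0.554).

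**Figure D3:**
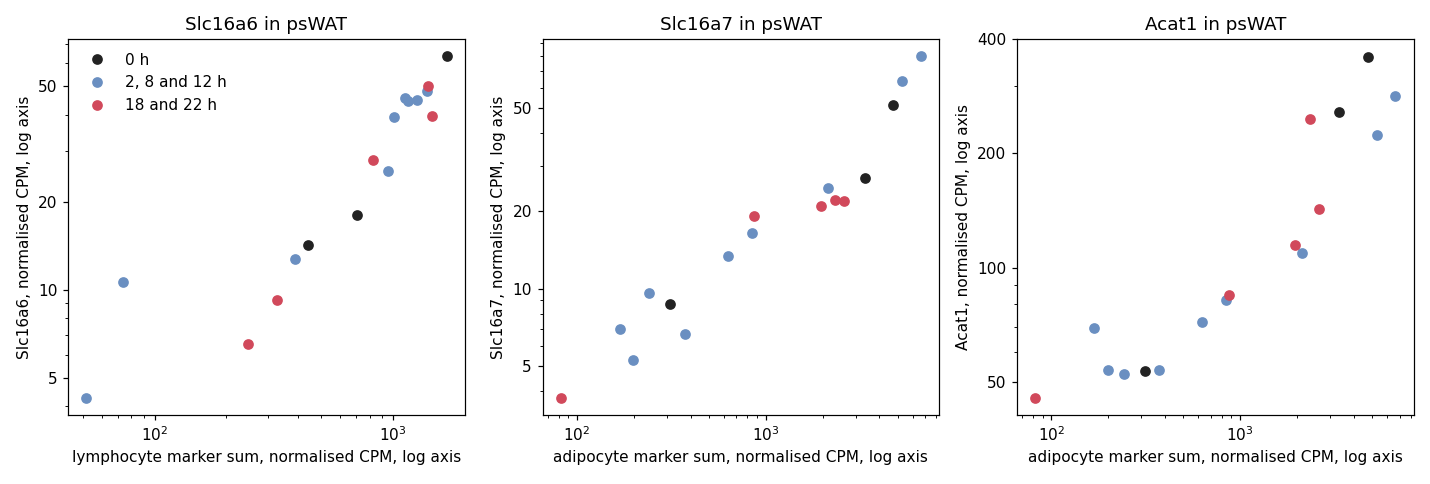
Levels of 3 members in the 17 psWAT libraries against summed markers, both as normalised CPM on log axes; points are libraries, coloured by hours of fasting. Slc16a6 rises with the lymphocyte sum from 51.7 to 1676, and Slc16a7 and Acat1 rise with the adipocyte sum from 81.995 to 6655.

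To compare genes with each other, levels were divided by exon length. Per kilobase, Oxct1 had the highest median level of the 7 in OB, BRN, CBL, BST, STM, pgWAT and psWAT, from 33.1 CPM per kb in psWAT to 165.4 in STM. In LIV and iBAT it was Acat1, with 113.8 and 375 CPM per kb. LIV was the organ in which Oxct1 was lowest of the 7, with 1.39 CPM per kb, while Bdh1 there reached 55.6. Bdh2 was lowest per kilobase in 7 organs and Bdh1 in pgWAT, with 0.329 CPM per kb. Among the carriers, Slc16a1 had the highest CPM per kb in all 9 organs, for example 58.8 in iBAT against 3.30 for Slc16a7 and 0.166 for Slc16a6. This order rests on the length of all exons together, 11839 bases for Slc16a7 and 4426 for Slc16a1. Without that division, median CPM was higher for Slc16a7 in STM (149.6 against 75.7), LIV (78.2 against 34.2) and pgWAT (83.6 against 55.3). It was higher for Slc16a1 in each of the other organs.

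Over the 9 organ means, as a description without a test, Acat1 and Slc16a1 had a Pearson r of 0.781 and Bdh1 and Slc16a6 of 0.735. It was -0.764 for Acat1 and Slc16a6, -0.750 for Slc16a1 and Slc16a6, and -0.728 for Bdh2 and Oxct1. The gene most like each member over those means was Nectin1 for Bdh1 (r = 0.974), Gm30025 for Bdh2 (0.963), Aifm1 for Acat1 (0.987), Rgma for Oxct1 (0.974), Prelid3b for Slc16a1 (0.978), Enpp1 for Slc16a6 (0.932) and Ssr2 for Slc16a7 (0.955). Across the 17 libraries of STM, Mgat2 was most like Acat1 (r = 0.983) and Mdh1 most like Oxct1 (r = 0.962). Across the libraries of other organs, Dnajc25 was most like Bdh1 in LIV (r = 0.934), B3glct most like Slc16a1 in iBAT (r = 0.884), Caml most like Acat1 in OB (r = 0.922) and Gria2 most like Slc16a7 in OB (r = 0.962). The points share organs, lanes and depth.

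Other genes of the pathway were counted in the late fast against 0 h, each list with its median log2FC, beside 15.3% of all genes called in STM, 10.6% in LIV and 20.9% in iBAT. Of 8 tested other ketone body and acetoacetyl-CoA genes in STM, 3 fell and 0 rose by edgeR, with a median log2FC of -0.44: Aacs, the acetoacetyl-CoA synthetase of the cytosol (-1.06, SE 0.17, adjusted p = 0.00299), Hmgcs1 of sterol synthesis (-0.72) and the mitochondrial acetyl-CoA synthetase Acss1 (-0.74). In LIV 3 of 6 fell, with a median of -0.29: Acss2, the cytosolic acetyl-CoA synthetase (-1.06, SE 0.14; edgeR, adjusted p = 0.000221), Hmgcs1 (-1.04) and the cytosolic thiolase Acat2 (-0.49). In iBAT 3 of 8 fell and 2 rose, with a median of 0.05. Acss2 there went from 559 to 858 at 0 h to 152.4 to 294 in the late fast (log2FC -1.88, SE 0.20; edgeR, adjusted p = 9.1e-05), and Hcar2, the receptor of beta-hydroxybutyrate, from 5.63 to 8.86 to 11.7 to 42.8 (log2FC 1.52, SE 0.36; edgeR, adjusted p = 0.0101).

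Of other monocarboxylate carriers and their partners, 1 of 11 fell in STM, Bsg, the chaperone that brings these carriers to the membrane (log2FC -0.66, SE 0.22; edgeR, adjusted p = 0.0492). In iBAT 2 of 9 were called lower, Slc16a13 (-2.06, SE 0.46; edgeR, adjusted p = 0.00776) and the scarce Slc16a4 (adjusted p = 0.0400), which stood between 0.658 and 1.53 normalised CPM at 0 h and between 0 and 0.908 in the late fast. The late libraries lay below the expression filter, so Slc16a4 passed it through earlier libraries alone and its call is not read as a fall. The median log2FC of this list was -0.38 in STM, -0.35 in LIV and -0.33 in iBAT, beside -0.07 to 0.01 over all genes.

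Mitochondrial fatty acid oxidation, which supplies ketone synthesis, had 6 of 15 genes lower and 0 higher in STM by edgeR, with a median log2FC of -0.38, among them Etfa (-0.99, SE 0.20, adjusted p = 0.00607) and Acads (-0.94). LIV had 1 of 15 higher, Etfb (0.86, SE 0.15; edgeR, adjusted p = 0.00145), and 2 lower, Acads (-0.48) and Etfdh (-0.68). iBAT had 4 of 16 higher, Acads (0.73) and Eci1 (0.67) among them, and 2 lower, with Cpt1a at -0.96 (SE 0.23; edgeR, adjusted p = 0.0109). Levels of Cpt1a overlapped, with a median of 25.4 at 0 h (18.4 to 31.2) and of 27.9 in the late fast (3.20 to 36.4). Of 14 genes of the liver's fasting response, 1 fell in LIV, the lipid droplet gene Plin2 (-0.65, SE 0.13; edgeR, adjusted p = 0.00318), and 0 rose. In STM 2 of 10 rose, Pdk4, a kinase that curbs pyruvate oxidation (1.90, SE 0.33; edgeR, adjusted p = 0.00442), and the lipase inhibitor Angptl4 (1.31). In iBAT 2 of 9 rose, Angptl4 (1.75, SE 0.32; edgeR, adjusted p = 0.0029) and Acot1 (1.58), and Plin2 fell (-0.71).

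The members lie on 6 chromosomes of the mouse genome build GRCm38. Bdh1 lies at chr16:31422280-31458901, Bdh2 at chr3:135281221-135304426, Acat1 at chr9:53580522-53610382, Oxct1 at chr15:4026383-4155344, Slc16a1 at chr3:104638668-104658462, Slc16a6 at chr11:109450855-109473598 and Slc16a7 at chr10:125219270-125389465. Exons add up to between 3701 bases in Oxct1 and 11839 in Slc16a7. Promoter sequences in RefSeq on GRCm38.p6 were found for 4 of the 7, and Acat1, Slc16a6 and Slc16a7 had no entry.

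Motifs were searched on both strands of these promoters, 300 bases each: the nuclear receptor half-site AGGTCA and its direct repeat with 1 base between (DR1), the E-box CACGTG, the forkhead motif GTAAACA, the cAMP response element TGACGTCA, the glucocorticoid half-site TGTTCT, the CCAAT box and the GC box GGGCGG. The repeat holds the first motif, so those overlap. Of all 32851 promoters, 16.3% held AGGTCA, 0.0396% DR1, 7.15% CACGTG, 3.65% GTAAACA, 1.79% TGACGTCA, 19% TGTTCT, 37.4% CCAAT and 35.7% GGGCGG. The promoter of Slc16a1, the carrier called lower in iBAT against 0 h, is shown because it held 2 of these motifs. That of Oxct1, the transferase called lower in STM in fits without a lane term, is shown because it held none. Capitals mark CACGTG and GGGCGG. These promoters lie at chr3:104638414-104638713 and chr15:4026178-4026477, both on the plus strand. A match is a description only. Of the others, Bdh2 held CCAAT, and Bdh1 had GGGCGG in 1 of its 2 promoters and none in the other.
Slc16a1: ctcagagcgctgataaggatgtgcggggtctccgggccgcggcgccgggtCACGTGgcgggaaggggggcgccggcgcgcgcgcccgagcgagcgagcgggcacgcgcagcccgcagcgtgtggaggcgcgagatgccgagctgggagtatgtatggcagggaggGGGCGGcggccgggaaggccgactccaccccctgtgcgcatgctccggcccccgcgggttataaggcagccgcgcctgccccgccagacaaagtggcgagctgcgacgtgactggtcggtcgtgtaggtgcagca
Oxct1: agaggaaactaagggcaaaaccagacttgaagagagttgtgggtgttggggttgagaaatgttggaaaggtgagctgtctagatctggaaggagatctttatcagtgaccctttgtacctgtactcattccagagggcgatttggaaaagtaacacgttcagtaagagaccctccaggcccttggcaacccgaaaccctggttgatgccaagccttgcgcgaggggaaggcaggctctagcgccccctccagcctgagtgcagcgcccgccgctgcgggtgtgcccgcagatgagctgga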

How the data were processed

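The deposited counts were read counts per gene symbol that the authors made from mRNA libraries of 162 mouse organ samples; per the submitters' processing notes, reads were aligned to GRCm38.p5 with TopHat2 2.1.1 and counted with HTSeq 0.9.1 over Gencode M16 genes. The strand setting of the counting was not given in the sources used here. The 5 libraries whose log2 total lay over 2 SD below the organ's mean were left out, and the others held 3045845 to 27801717 counts. Genes had to reach the CPM of 10 counts at the organ's median depth in at least 3 libraries. Each organ's 6 time points were fitted together with edgeR 4.0.16 (TMM factors, robust quasi-likelihood tests) in R 4.3.3, with Benjamini-Hochberg adjustment over all genes of the organ; DESeq2 1.42.0 was an alternative. Organ comparisons used permutation tests within mice in Python 3.11.15, on log2 of normalised CPM plus 0.1. Mice were matched across organs by fasting time and replicate number, a pairing assumed and not stated in the sample titles. Exon lengths and positions came from Gencode M21. The fits were tested on simulated data. All 7 members were named in every organ; from 4 gene lists, genes past the threshold in the late fast against 0 h in LIV, iBAT or STM were named, at most 4 per list and organ, smallest p first. Marker genes, and the genes most like a member, were named from fixed lists and rules as well. Members and lists were chosen with earlier results of these data known. Alternatives were another tool, normalization, filter, threshold or lane term, a block for replicate number, other choices of times and libraries, and offsets for exon length. Floors cover counting error only. The SE of a log2FC came from the quasi-likelihood fits, which estimate the spread between libraries.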

Additional observations from a re-analysis of the deposited data

Results flagged for a closer look

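The 5 results below were singled out because a member's late fast (18 and 22 h) against 12 h or less differed between an organ and the same mouse's other organs, as a difference of log2 levels (exact permutation test over mice, Benjamini-Hochberg over 63 pairs of member and organ). For Bdh1 in iBAT the difference was -2.5838 (adjusted p = 0.0489), lower in 5 of 5 late mice, at 0 to 30 counts per library. Of it, -2.15 was in iBAT and the rest a mean rise by 0.43 in the other organs. The late libraries held 4 counts or fewer, so its size depends on the 0.1 CPM added before taking logs. Bdh1 passed the expression filter in iBAT through earlier libraries alone, so this is not read as a fall. With the libraries of low depth put back the adjusted p was 0.0515. For Acat1 in STM the difference was -0.94198 (adjusted p = 0.0153), lower in 6 of 6. For Oxct1 in STM it was -0.67472 (adjusted p = 0.0267), lower in 6 of 6, and with the libraries of low depth put back the adjusted p was 0.0607. For Oxct1 in CBL it was 0.2304 (adjusted p = 0.0181), higher in 6 of 6, with 0.08 of it in CBL and the rest a mean fall by 0.15 in the other organs. For Slc16a6 in BST it was 0.68294 (adjusted p = 0.0181), higher in 6 of 6, with 0.15 of it in BST. Late mice were in other lanes than 0 h and 2 h mice in STM, OB, LIV and pgWAT, while CBL and BST each had a single lane. The causes were not tested.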

How the results depend on the processing

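No called result reversed its direction under an alternative. A result that was not called did: Slc16a6 in LIV went with lane as a covariate from -1.11 to 0.57 against 0 h and from -0.88 to 0.12 against 2 to 12 h (log2FC; edgeR, adjusted p = 0.675 and 0.939), and the cause was not tested. Within the later lane, against 12 h, it was -1.10 (edgeR, adjusted p = 0.158). Of the values for called members, 304 kept their side of the threshold and 52 lost it.

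The count of pairs called in the late fast against 0 h, 3, became 8 with DESeq2, 8 without a filter on low counts, 1 with lane as a covariate, 1 with 22 h alone, 7 with offsets for exon length and 1 with an absolute log2FC over 1. Leaving out 1 library at a time gave 1 to 6: 1 without STM 0 h replicate 3, 5 without OB 18 h replicate 2, and 6 without BRN 18 h replicate 3 or BRN 22 h replicate 3. Without BRN 18 h replicate 3 the lone 18 h library is assumed to vary like the other groups. Only libraries of 0, 18 and 22 h were left out in turn, in 78 fits, here and in the ranges below. No library of 2, 8 or 12 h was, so the ranges for 2 to 12 h and for the joint test do not cover those libraries. The count against 2 to 12 h, 9, became 3 with lane, 2 with 12 h alone and 2 with an absolute log2FC over 1, and 8 to 11 with 1 library left out. The count from the joint test, 6, became 14 with DESeq2, 11 without a filter, 3 with lane and 1 with an absolute log2FC over 1, and 4 to 8 with 1 library left out. DESeq2 called more genes than edgeR in every organ in the late fast against 0 h, such as 810 against 327 in OB and 1136 against 1 in pgWAT. Shares over all genes under the other settings are not given, so these changes in count are not read as results about the members. Neighbouring organs that differ, 26, ran from 21 to 26 with a replicate number left out. Differences from the same mouse's other organs, 5, became 8 with plain CPM. The cause was not tested, except that an added threshold or covariate can leave fewer calls by construction.

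A lane term could be fitted in OB, BRN, STM, LIV, pgWAT and psWAT; CBL and BST had 1 lane each, and iBAT, where it could not be fitted, kept its values in the counts above. With replicate number as a block the counts were 4, 9 and 5, and in STM the joint test lost Acat1 (adjusted p = 0.0679) and Oxct1 (adjusted p = 0.0783). Numbers did not pair libraries of an organ across times: residual correlations averaged between -0.0842 and 0.0257 in 8 organs, and 0.224 in iBAT. The alternatives with 12 h alone, with offsets for exon length, without 7 libraries and with levels centred on the organ mean were chosen after seeing the data.

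With 2 or 3 libraries per time, small changes could not be detected, and a miss does not show that levels were equal. Low counts limit Bdh1 and Bdh2 in iBAT. Lane and time cannot be told apart in OB, STM, LIV and pgWAT for the late fast against 0 h, nor 22 h and lane in iBAT. Markers of other tissues in fat and liver, and gene length in iBAT, BRN, OB and pgWAT, moved with fold changes. The members are a choice of genes, and proteins and metabolites were not measured.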
